A study of Arabidopsis thaliana with 36 samples.

Results

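The transcripts of 6 *PHYTOCHROME INTERACTING FACTOR* (*PIF*) genes of Arabidopsis thaliana, namely *PIF1* (AT2G20180), *PIF3* (AT1G09530), *PIF4* (AT2G43010), *PIF5* (AT3G59060), *PIF7* (AT5G61270) and *PIF8* (AT4G00050, also named *UNE10*), were followed across 12 combinations of genotype and light. The genes were taken by their identifiers from the 33602 genes counted, and all 6 were among the 20926 that passed the filter on low counts. PIFs are basic helix-loop-helix (bHLH) transcription factors that bind light-activated phytochromes. Under white light with a high red to far-red ratio (R:FR), active phytochrome B leads to their phosphorylation, degradation or release from DNA. Under the low R:FR that neighboring leaves create, phytochrome B is inactivated, PIFs become more active, and they switch on auxin and cell-wall genes that drive elongation. UV-B, perceived by the receptor UVR8 together with the E3 ubiquitin ligase COP1, opposes this elongation.

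RNA was sequenced from whole seedlings, 7 days old and of the Col-0 ecotype, with 30 seedlings per sample and 3 libraries for each combination. The genotypes were *uvr8-6* (*uvr8*), which lacks functional UVR8, *hfr1-101* (*hfr1*), a mutant of the atypical bHLH protein HFR1 that binds PIFs and keeps them off DNA, and the wild type Col; each mutant was represented by 1 allele. The light treatments lasted 3 h, and the conditions were UV-B added to low R:FR (+FR+UVB), UV-B added to white light (+UVB), low R:FR (+FR) and white light alone (WL). WL had an R:FR of 4.7, the supplemental narrowband UV-B was 0.06 mW per square centimeter, and the low R:FR is given as 0.05 in the growth description and as 0.08 in the treatment description. The labels number the libraries within a group without saying whether they came from separate experiments, so the p-values measure the spread between these samples.

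The libraries held between 9749710 and 21175260 counts (median 18488977), and each *PIF* gene had between 132 and 4090 counts in each library. *UVR8* transcript was at most 17.0 counts per 1000000 (CPM) in *uvr8* libraries, against at least 65.6 CPM in all others, whereas *HFR1* was still transcribed in *hfr1*, at 2.85 to 151.6 CPM, so its level does not check that label. Green tissue transcripts (*RBCS1A* at 13510 CPM or more) and root hair transcripts (*EXPA7* at 7.58 CPM or more) were found in every library. Seed storage transcripts stood out in the *uvr8* WL replicate 2 (*CRU3* 65.1 CPM) and, less, in the *uvr8* +UVB replicate 1 (*CRU3* 11.1 CPM). The *hfr1* +UVB replicate 1 was least like its group, and 0.969 was the lowest correlation of log2 CPM between libraries of any group, against a median of 0.989. The calls that leaving out these libraries changed are given below with their values. Some values that were not called also turned sign without them, and these are not all listed. In bulk RNA from seedlings, fewer cells expressing a gene and less RNA per cell cannot be told apart.

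Levels were first compared between the 6 genes per length, as CPM (scaled by TMM factors) per kb of exon, and then within each gene as CPM. In Col under WL, *PIF5*, *PIF8* and *PIF4* were the most abundant, at 30.5 ± 2.57, 28.1 ± 2.97 and 27.6 ± 3.58 CPM per kb (SD, n = 3), and their SD ranges overlapped. *PIF1*, which represses seed germination in the dark, and *PIF7*, which drives the early shade response, followed at 14.8 ± 0.901 and 14.1 ± 2.86 CPM per kb, and *PIF3*, which represses greening in etiolated seedlings, was lowest at 7.21 ± 2.18 CPM per kb. Across the 12 groups, *PIF4* varied most, by 5.35-fold between the highest and lowest group means, followed by *PIF8* at 4.49-fold. *PIF3* varied by 2.94-fold, *PIF7* by 2.52-fold, *PIF5* by 2.41-fold and *PIF1* by 2.26-fold.

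**Figure D1:**
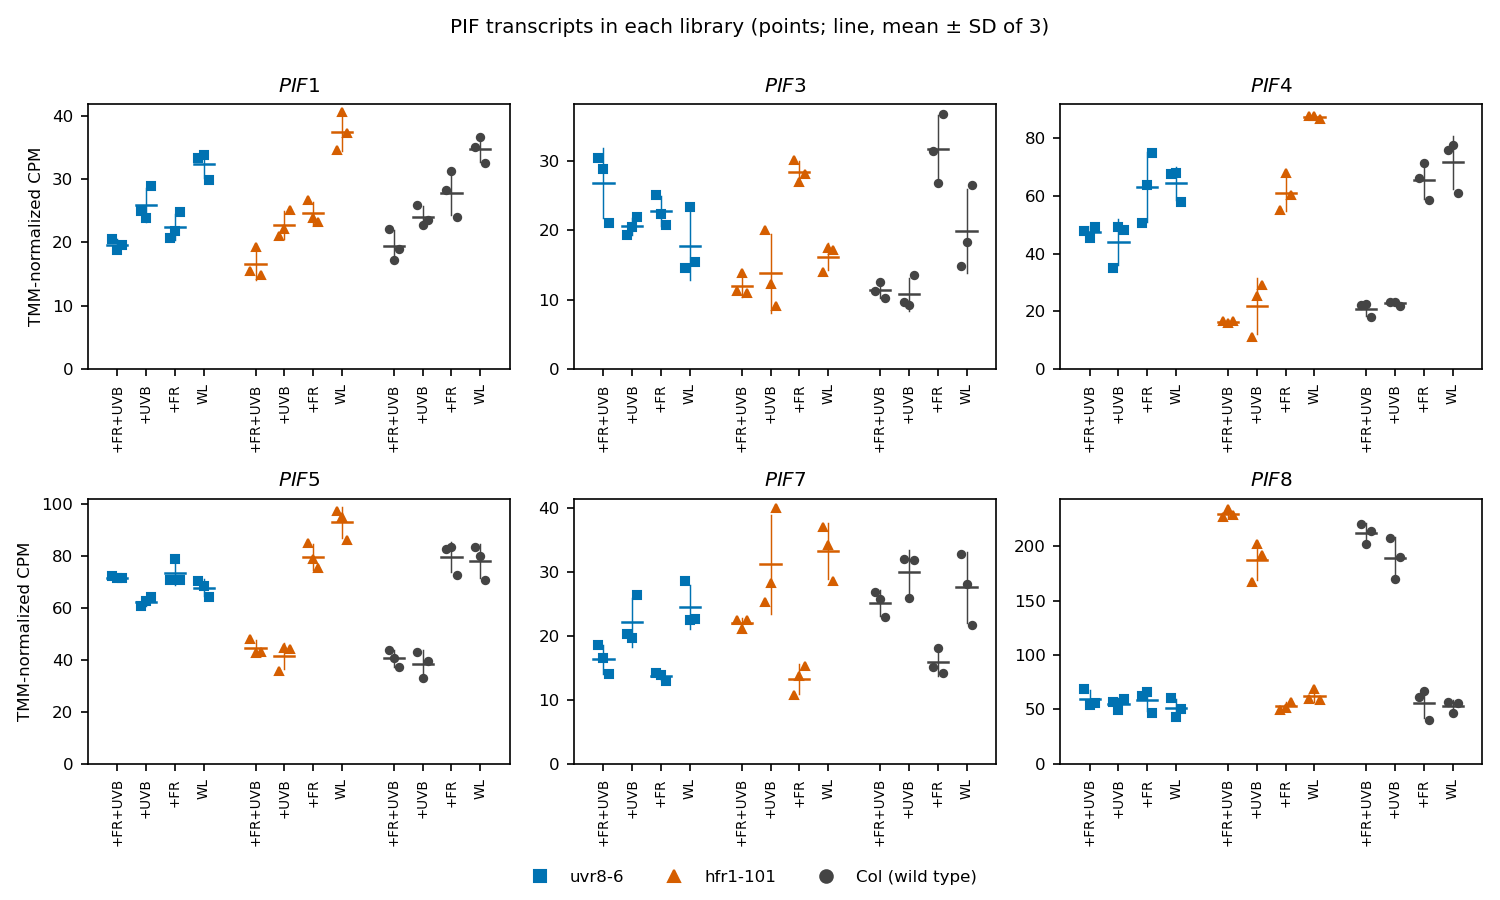
TMM-normalized CPM of each *PIF* gene (vertical axis, 1 panel per gene, starting at 0) in every library, grouped by genotype and light condition; points are libraries and lines are the mean ± SD of 3. *PIF8* sits between 167 and 234 CPM in *hfr1* and Col libraries with UV-B and at or below 68.4 CPM in all other libraries, while *PIF4* and *PIF5* are lowest where *PIF8* is highest.

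The order of the group means differed by gene. *PIF8* was highest in *hfr1* under +FR+UVB (229.9 ± 3.90 CPM, SD, n = 3), followed by Col under +FR+UVB (212 ± 9.45 CPM), Col under +UVB (189.6 ± 18.9 CPM) and *hfr1* under +UVB (187 ± 18.0 CPM). The first was above all libraries of the next, the other 3 overlapped, and all 4 were apart from the other 8 groups, whose means lay between 51.2 and 62.1 CPM and which overlapped from each to the next. *PIF4* was lowest in the 4 groups in which *PIF8* was highest, with *hfr1* under WL at the top (87.5 ± 0.565 CPM), 5 overlapping groups between 61.1 and 71.7 CPM, the *uvr8* groups with UV-B at 47.6 ± 1.94 (+FR+UVB) and 44.1 ± 7.96 CPM (+UVB), and the *hfr1* and Col groups with UV-B between 16.3 and 22.8 CPM. *PIF5* followed *PIF4* in having the 4 *hfr1* and Col groups with UV-B at the bottom, at 38.5 to 44.6 CPM. *PIF7* was lowest in the 3 +FR groups (13.2 to 15.8 CPM) and in *uvr8* under +FR+UVB (16.3 ± 2.27 CPM). *PIF1* was highest in the 3 WL groups (32.4 to 37.5 CPM), each of which overlapped the next group in the order, though *hfr1* and *uvr8* under WL did not overlap. For *PIF3* every group overlapped the next one in the order, between 31.7 ± 4.97 CPM in Col under +FR and 10.8 ± 2.37 CPM in Col under +UVB.

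Supplemental UV-B changed most *PIF* transcripts in Col, and it moved them in opposite directions. *PIF4* and *PIF5*, the pair known for driving hypocotyl elongation under shade and warmth, fell, as did *PIF3* and *PIF1*. *PIF8*, a member linked to phytochrome A signaling in far-red light, rose. These changes were seen both in +UVB against WL and in +FR+UVB against +FR, and *PIF7* rose only in the second of these comparisons, a contrast between comparisons that did not itself pass its test (below). In +UVB against WL, *PIF4*, *PIF5* and *PIF8* were the genes that changed over 2-fold, while *PIF3* fell by more than *PIF5* in the other comparison. The regions just upstream of the gene starts of *PIF4*, *PIF5* and *PIF8*, which moved in opposite directions, are shown.

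They are the 250 bases before each annotated gene start, 5′ to 3′ on the strand of the gene, from the RefSeq annotation of assembly TAIR10.1: chr2:17885851-17886100 (plus strand) for *PIF4*, chr3:21830838-21831087 (minus strand) for *PIF5* and chr4:17389-17638 (plus strand) for *PIF8*. Capitals mark a match, on either strand, to any of 6 motifs.
PIF4: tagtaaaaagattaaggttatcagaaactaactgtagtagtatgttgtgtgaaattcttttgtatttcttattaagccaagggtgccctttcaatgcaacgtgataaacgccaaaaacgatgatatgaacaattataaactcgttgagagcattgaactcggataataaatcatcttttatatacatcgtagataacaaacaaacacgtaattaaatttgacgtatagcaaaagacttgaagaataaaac
PIF5: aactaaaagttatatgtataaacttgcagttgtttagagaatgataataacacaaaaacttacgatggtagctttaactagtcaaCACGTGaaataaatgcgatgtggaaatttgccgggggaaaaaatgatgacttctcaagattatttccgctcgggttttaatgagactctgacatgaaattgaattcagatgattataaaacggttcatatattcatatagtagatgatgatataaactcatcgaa
PIF8: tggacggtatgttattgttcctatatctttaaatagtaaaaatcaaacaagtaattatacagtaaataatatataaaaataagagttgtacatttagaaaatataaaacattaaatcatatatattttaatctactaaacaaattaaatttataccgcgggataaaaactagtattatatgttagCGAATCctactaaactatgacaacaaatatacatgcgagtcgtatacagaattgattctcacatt
The motifs searched were the G-box CACGTG, bound by PIFs, HY5 and other factors, the PIF-binding E-box CACATG, the evening element AAATATCT and the CCA1-binding site AAAAATCT of the circadian clock, and the sites GATACG and GATTCG of the evening-complex protein LUX. *PIF5* held 1 G-box, from 165 to 160 bases before the start, and *PIF8* held 1 GATTCG site (read as CGAATC on its strand), from 65 to 60 bases before the start. None of the 6 motifs was in the window of *PIF4*, nor in those of *PIF1*, *PIF3* and *PIF7*, and no match overlapped another. Among all 27443 protein-coding genes, 6.49% of such windows held the G-box, 11.1% CACATG, 4.79% the evening element, 6.69% the CCA1-binding site, 4.59% GATACG and 7.88% GATTCG. These matches describe the letters only and do not show where a factor binds.

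For *PIF4*, the 3 libraries had 23.2, 23.1 and 22.0 CPM in Col under +UVB, against 76.1, 77.9 and 61.0 CPM under WL. Under low R:FR the same gene had 22.1, 22.4 and 18.2 CPM with UV-B (+FR+UVB) and 66.2, 71.6 and 58.7 CPM without it (+FR). Every library with UV-B was thus below every library without it. The decrease was 3.14-fold in +UVB against WL (log2 fold change −1.65, SE 0.20, adjusted p = 8.94e-08, edgeR's quasi-likelihood test) and 3.13-fold in +FR+UVB against +FR (−1.65, SE 0.20, adjusted p = 6.98e-08). *PIF5*, its closest relative in function, had 43.1, 33.0 and 39.5 CPM under +UVB, against 83.6, 80.0 and 70.8 CPM under WL. With UV-B under low R:FR it had 43.9, 40.6 and 37.2 CPM (+FR+UVB), against 82.6, 83.3 and 72.8 CPM (+FR). Again no library with UV-B reached any library without it. *PIF5* fell 2.03-fold (−1.02, SE 0.09, adjusted p = 5.09e-10) in the first comparison and 1.96-fold (−0.97, SE 0.09, adjusted p = 7.45e-10) in the second.

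*PIF8* had 208, 170.3 and 190.5 CPM in Col under +UVB, against 56.9, 46.6 and 55.5 CPM under WL. Under low R:FR it had 221, 202 and 214 CPM with UV-B (+FR+UVB), against 60.9, 66.8 and 40.3 CPM without (+FR). The groups were far apart in both comparisons, and the rise was 3.58-fold (log2 fold change 1.84, SE 0.15, adjusted p = 4.59e-11) in +UVB against WL and 3.79-fold (1.92, SE 0.15, adjusted p = 1.22e-11) in +FR+UVB against +FR. *PIF8* was the *PIF* gene with the smallest p in each of these comparisons, at rank 389 of the 20926 genes in the first and rank 516 in the second.

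*PIF3* fell less clearly in white light, where the libraries had 9.67, 9.22 and 13.5 CPM under +UVB, against 14.8, 18.3 and 26.6 CPM under WL (−0.88, SE 0.23, adjusted p = 0.0021). Under low R:FR the groups were wider apart, with 11.3, 12.5 and 10.3 CPM under +FR+UVB, against 31.4, 26.9 and 36.8 CPM under +FR (−1.48, SE 0.23, adjusted p = 3.03e-06). *PIF1* moved by less than the other 3 genes that fell. It had 25.9, 22.8 and 23.5 CPM under +UVB, against 35.1, 36.7 and 32.5 CPM under WL (−0.53, SE 0.11, adjusted p = 0.000211), and the decrease was of like size in +FR+UVB against +FR (−0.52, SE 0.11, adjusted p = 0.000233). *PIF7* had 32.0, 25.9 and 31.8 CPM under +UVB, against 32.8, 28.1 and 21.7 CPM under WL, groups that overlapped (0.12, 95% interval −0.22 to 0.45, adjusted p = 0.578). Under +FR+UVB it had 26.8, 25.7 and 22.9 CPM, above all 3 libraries under +FR, at 15.2, 18.1 and 14.2 CPM (0.67, SE 0.17, adjusted p = 0.00132).

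In Col, 5 of 6 *PIF* genes were thus called in +UVB against WL, where 49.2% of all genes tested were called, and 6 of 6 in +FR+UVB against +FR, where 54.4% were. With such a broad response, counts over 6 genes say little, and they were not tested against these shares. What differed among the *PIF* genes was direction and size. Adding the study's minimum of a fold change over 2 left *PIF4*, *PIF5* and *PIF8* in the first comparison and *PIF3*, *PIF4* and *PIF8* in the second. Of all 20926 genes it left 2819 in the first and 3516 in the second. Fold changes are relative to TMM scaling, and scaling by library size alone moved the median of all genes by −0.18 in +UVB against WL and by −0.27 in +FR+UVB against +FR without changing the direction of any called *PIF* gene or any call in these comparisons. That scaling gave 0.40 in place of 0.67 for *PIF7* and −0.79 in place of −0.52 for *PIF1* in +FR+UVB against +FR, and turned the sign of *PIF7*, not called, in +UVB against WL. Without 1 library at a time, the log2 fold change stayed between −1.75 and −1.59 for *PIF4* and between 1.75 and 1.91 for *PIF8* in +UVB against WL.

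**Figure D2:**
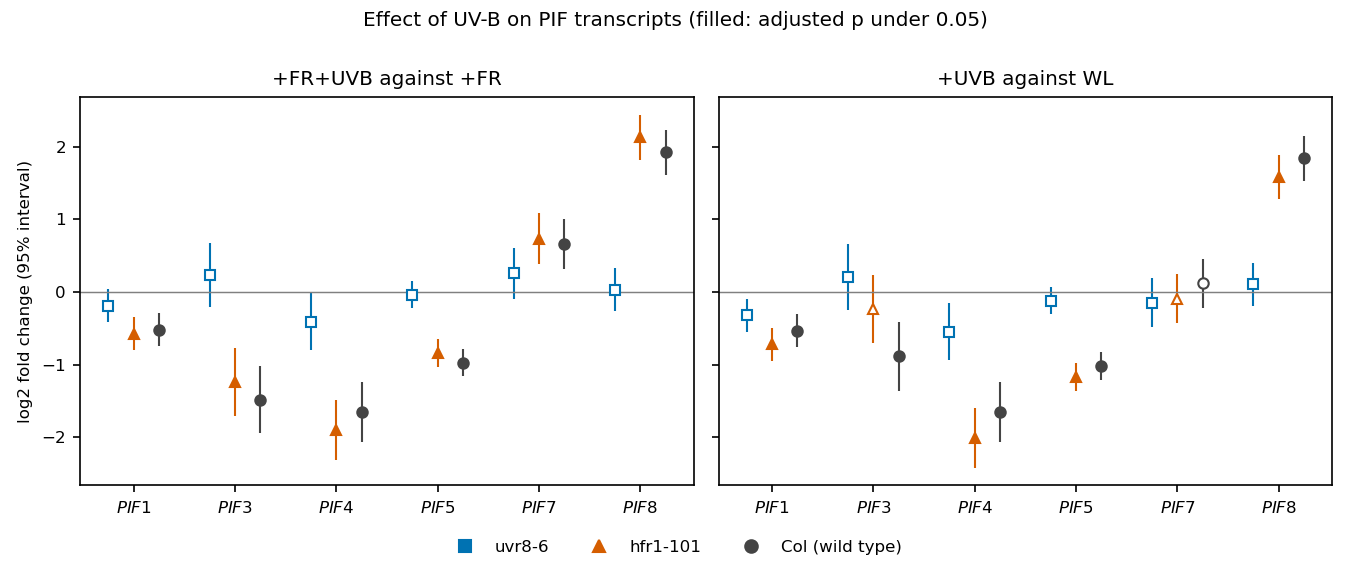
Log2 fold change of each *PIF* gene with UV-B (vertical axis; bars, 95% interval) under low R:FR (left) and in white light (right) in *uvr8*, *hfr1* and Col; filled symbols have an adjusted p under 0.05. Under low R:FR *PIF8* lies at 2.13 in *hfr1* and 1.92 in Col and at 0.03 in *uvr8*, and *PIF4* at −1.90 in *hfr1*, −1.65 in Col and −0.41 in *uvr8*.

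Because UV-B lowered some *PIF* transcripts and raised *PIF8*, the composition of the RNA of these 6 *PIF* genes in Col differed more than its sum. Related bHLH genes are not part of that sum. *PIF8* made up 69.6% ± 1.74 of the summed CPM per kb of the 6 genes under +FR+UVB and 65.3% ± 0.682 under +UVB, against 25.0% under +FR and 23.0% under WL (SD, n = 3). *PIF4* made up 4.98% under +FR+UVB and 5.74% under +UVB, against 21.5% under +FR and 22.5% under WL. The sum itself was 162 ± 7.13 CPM per kb under +FR+UVB and 154 ± 14.4 under +UVB, against 117 ± 12.8 under +FR and 122 ± 7.03 under WL. In *uvr8* the share of *PIF8* was 30.2% under +FR+UVB and 29.2% under +UVB, against 28.4% under +FR and 24.4% under WL, and in *hfr1* it was 72.4% and 64.3%, against 25.3% and 23.2%. These shares restate the levels above and were not tested.

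**Figure D3:**
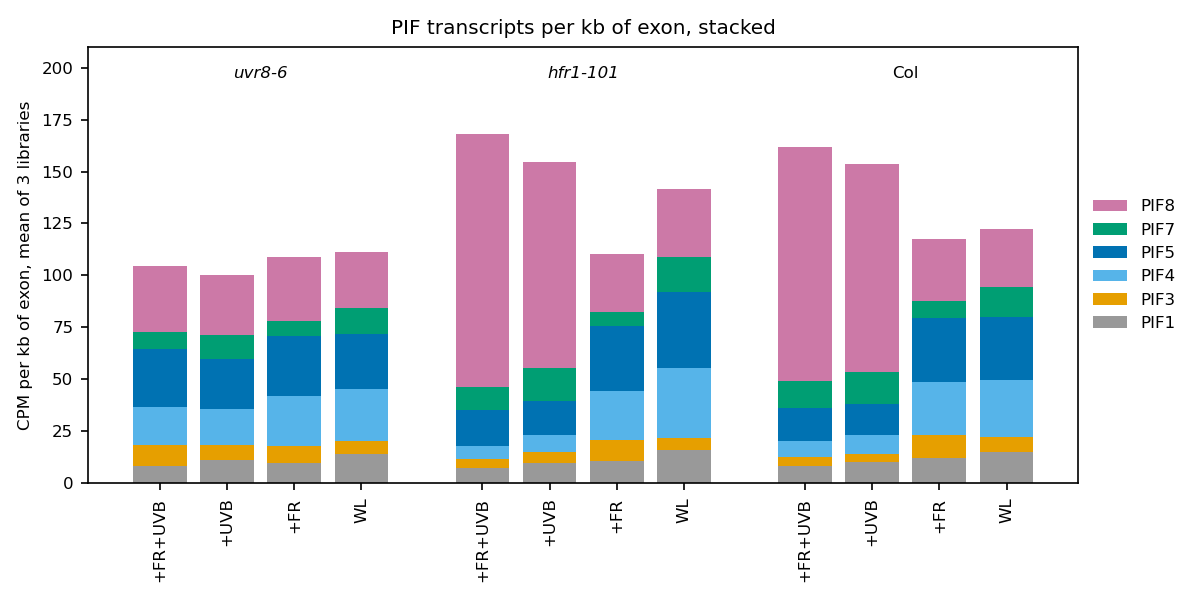
Mean CPM per kb of exon of the 6 *PIF* genes, stacked, for the 12 groups (mean of 3 libraries). *PIF8* fills 64.3% to 72.4% of the bar in the *hfr1* and Col groups with UV-B and 23.0% to 30.2% in the other 8 groups.

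The *uvr8* comparisons asked whether the UV-B changes needed the UV-B receptor. In *uvr8*, UV-B left all 6 *PIF* genes short of the threshold. *PIF8* had 56.8, 49.0 and 59.7 CPM under +UVB, against 59.9, 43.1 and 50.6 CPM under WL, and the libraries overlapped (0.11, 95% interval −0.19 to 0.41, adjusted p = 0.757). On top of low R:FR, UV-B gave 68.4, 54.4 and 56.1 CPM (+FR+UVB), against 61.9, 65.9 and 47.0 CPM without it (+FR), again overlapping (0.03, −0.27 to 0.33, adjusted p = 0.942). *PIF5* had 60.6, 62.6 and 64.1 CPM under +UVB, against 70.5, 68.6 and 64.2 CPM under WL (−0.12, −0.30 to 0.07, adjusted p = 0.535). Its libraries overlapped under low R:FR, at 72.1, 71.5 and 71.5 CPM under +FR+UVB, against 70.8, 79.0 and 71.0 CPM under +FR (−0.04, −0.22 to 0.15, adjusted p = 0.89).

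*PIF4*, *PIF1* and *PIF5* had lower means with UV-B in *uvr8* in both comparisons without reaching the threshold, by most for *PIF4*. *PIF4* had 34.9, 49.2 and 48.1 CPM under +UVB, against 67.7, 67.8 and 57.8 CPM under WL, and these libraries did not overlap (−0.55, 95% interval −0.94 to −0.15, adjusted p = 0.129). The +UVB replicate 1, which gave the lowest of these values, also carried the seed storage transcripts named above, and without it the difference was still not called. Under low R:FR *PIF4* had 47.9, 45.5 and 49.3 CPM with UV-B (+FR+UVB), against 50.7, 63.9 and 74.8 CPM without (+FR), with an interval that lay just below 0 (−0.41, −0.80 to −0.01, adjusted p = 0.306). *PIF3* in *uvr8* had log2 fold changes of 0.21 (−0.24 to 0.66) with +UVB and 0.24 (−0.21 to 0.68) with +FR+UVB, opposite in sign to those in Col. *PIF1* had −0.32 (−0.55 to −0.10, adjusted p = 0.111, and −0.40 with adjusted p = 0.0447 without the +UVB replicate 3) and −0.19 (−0.42 to 0.04), and *PIF7* −0.15 (−0.48 to 0.19) and 0.26 (−0.09 to 0.60). The *PIF1* libraries with UV-B all lay below those without it in both comparisons, as did those of *PIF4* under low R:FR and of *PIF5* in white light. The nearest libraries were close, for *PIF1* 28.9 CPM under +UVB against 29.9 CPM under WL. Of 6 genes, edgeR's quasi-likelihood test called 0 in *uvr8* in +UVB against WL, where 2.68% of all genes were called. It put 2 of the 6 at an unadjusted p under 0.05, against 3601 of all 20926 genes. In +FR+UVB against +FR it called 0, where 2.07% of all genes were called. There it put 1 at an unadjusted p under 0.05, against 3212 of all genes. DESeq2 called 0 in each comparison.

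The UV-B effect itself differed between *uvr8* and Col for *PIF3*, *PIF4*, *PIF5* and *PIF8*. As the effect in *uvr8* minus that in Col, +UVB gave −1.73 for *PIF8* (SE 0.21, adjusted p = 2.79e-07), 0.90 for *PIF5* (SE 0.13, adjusted p = 5.57e-06), 1.11 for *PIF4* (SE 0.28, adjusted p = 0.00306) and 1.09 for *PIF3* (SE 0.32, adjusted p = 0.0102). With low R:FR as the background the differences were −1.89 for *PIF8* (SE 0.21, adjusted p = 3.55e-08), 0.94 for *PIF5* (SE 0.13, adjusted p = 1.87e-06), 1.24 for *PIF4* (SE 0.28, adjusted p = 0.000848) and 1.72 for *PIF3* (SE 0.31, adjusted p = 9.68e-05). For *PIF1* the difference was 0.21 with +UVB (adjusted p = 0.333) and 0.33 under low R:FR (adjusted p = 0.107), and for *PIF7* it was −0.27 (adjusted p = 0.422) and −0.41 (adjusted p = 0.193), and none of these was called. For *PIF1* the difference did pass with library-size scaling, at 0.43 (adjusted p = 0.034) with +UVB and 0.59 (adjusted p = 0.00379) under low R:FR, and under low R:FR also without Col +FR replicate 3 (0.42, adjusted p = 0.0466) or Col +FR+UVB replicate 1 (0.43, adjusted p = 0.0438). The 4 of 6 genes called stood against 29.8% of all genes for +UVB and 33.4% under low R:FR. Without Col WL replicate 3, the highest *PIF3* library of its group, the *PIF3* difference with +UVB was 0.83 (adjusted p = 0.0537).

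In direct comparison, *uvr8* had higher *PIF3*, *PIF4* and *PIF5* and lower *PIF8* than Col wherever UV-B was given. Under +FR+UVB the log2 fold change of *uvr8* against Col was 1.24 for *PIF3* (adjusted p = 5.12e-05), 1.19 for *PIF4* (adjusted p = 1.58e-05), 0.82 for *PIF5* (adjusted p = 2.44e-08) and −1.83 for *PIF8* (adjusted p = 3.99e-11). Under +UVB it was 0.93, 0.95, 0.70 and −1.78 for the same 4 genes. *PIF7* was also lower in *uvr8*, with 18.5, 16.5 and 14.0 CPM in *uvr8* under +FR+UVB, against 26.8, 25.7 and 22.9 CPM in Col (−0.62, adjusted p = 0.00286). Under +UVB the *PIF7* libraries overlapped, at 20.2, 19.6 and 26.4 CPM in *uvr8*, against 32.0, 25.9 and 31.8 CPM in Col (−0.43, adjusted p = 0.0304). With library size as the scaling neither *PIF7* difference passed, at −0.34 (adjusted p = 0.051) under +FR+UVB and −0.19 (adjusted p = 0.279) under +UVB, and that under +UVB was also lost without the *uvr8* +UVB replicate 1 (−0.39, adjusted p = 0.0925) or 2 (−0.36, adjusted p = 0.123) or the Col +UVB replicate 1 (−0.38, adjusted p = 0.0971) or 3 (−0.39, adjusted p = 0.0916). *PIF1* differed by 0.02 (−0.21 to 0.24) under +FR+UVB and by 0.11 under +UVB, and was called in neither, though with library-size scaling it was called in both, at 0.31 (adjusted p = 0.0225) and 0.35 (adjusted p = 0.00914).

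Thus 5 of 6 genes were called between *uvr8* and Col under +FR+UVB and 5 of 6 under +UVB, where 47.0% and 48.6% of all genes were. Without UV-B, edgeR's quasi-likelihood test called 0 of 6 under +FR (0.234% of all genes) and 0 of 6 under WL (0.172%). That test put 2 and 1 genes at an unadjusted p under 0.05, against 2657 and 1423 of all 20926 genes, and DESeq2 called 0 in each. The largest of these values were −0.48 for *PIF3* (−0.92 to −0.03, adjusted p = 0.354) and −0.31 for *PIF1* (−0.54 to −0.09, adjusted p = 0.208) under +FR, and −0.20 for *PIF5* (−0.39 to −0.02, adjusted p = 0.672) under WL.

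HFR1 is a bHLH protein that lacks a DNA-binding basic region and forms inactive dimers with PIFs, and the *hfr1* comparisons asked whether UV-B acted on *PIF* transcripts in its absence. In *hfr1*, UV-B changed *PIF1*, *PIF4*, *PIF5* and *PIF8* in the directions found in Col. *PIF8* had 227, 234 and 229 CPM in *hfr1* under +FR+UVB, against 49.2, 51.5 and 57.0 CPM under +FR (2.13, SE 0.15, adjusted p = 1.95e-12). Under +UVB it had 167, 202 and 192 CPM, against 59.3, 68.4 and 58.7 CPM under WL (1.59, SE 0.15, adjusted p = 8.07e-10). *PIF4* had 16.5, 15.9 and 16.7 CPM under +FR+UVB, against 55.2, 67.8 and 60.3 CPM under +FR (−1.90, adjusted p = 9.01e-09). The groups were apart for both genes. Under +UVB *PIF4* spread widely, at 11.0, 25.2 and 29.3 CPM, against 87.8, 87.8 and 86.8 CPM under WL (−2.00, SE 0.20, adjusted p = 3.44e-09). The lowest of these 3 was replicate 1, the library least like its group, and leaving out 1 library at a time moved the value between −2.27 and −1.68.

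*PIF5* fell in *hfr1* by 0.84 under low R:FR (adjusted p = 1.49e-08) and by 1.17 in white light (adjusted p = 3.19e-11), and *PIF1* by 0.57 (adjusted p = 0.000106) and by 0.72 (adjusted p = 3.98e-06). *PIF7* rose in +FR+UVB against +FR, with 22.5, 21.1 and 22.5 CPM under +FR+UVB, against 10.7, 13.7 and 15.2 CPM under +FR (0.74, adjusted p = 0.000624, and 0.48 with library-size scaling). In +UVB against WL its libraries overlapped (−0.09, adjusted p = 0.669). *PIF3* had 11.3, 13.9 and 11.0 CPM under +FR+UVB, against 30.1, 27.0 and 28.1 CPM under +FR (−1.24, adjusted p = 4.3e-05). In +UVB against WL it was not called, at 20.1, 12.3 and 9.04 CPM under +UVB, against 13.9, 17.4 and 17.2 CPM under WL (−0.23, 95% interval −0.70 to 0.23, adjusted p = 0.409). The highest of these was again replicate 1 of +UVB, and without it the value was −0.60 (adjusted p = 0.0305). In *hfr1*, 6 of 6 genes were called in +FR+UVB against +FR (background 49.9%) and 4 of 6 in +UVB against WL (background 49.9%).

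No difference between *hfr1* and Col passed the test for any *PIF* gene. For UV-B under low R:FR, the effect in *hfr1* minus that in Col was −0.25 for *PIF4* (95% interval −0.83 to 0.32), 0.13 for *PIF5* (−0.13 to 0.40) and 0.21 for *PIF8* (−0.21 to 0.63), each with an adjusted p of 0.999. For +UVB in white light it was −0.35 for *PIF4* (−0.92 to 0.22), −0.15 for *PIF5* (−0.41 to 0.12), −0.25 for *PIF8* (−0.67 to 0.17) and, the largest, 0.65 for *PIF3* (−0.01 to 1.31, adjusted p = 0.966). Without the *hfr1* +UVB replicate 1, the library least like its group, the value for *PIF3* was 0.28, that for *PIF4* −0.03, that for *PIF5* −0.05 and that for *PIF8* −0.18, each with an adjusted p of 1. edgeR's quasi-likelihood test called 0 of 6 genes for UV-B under low R:FR (0.0669% of all genes called) and 0 of 6 for +UVB (0%). It put 0 in each at an unadjusted p under 0.05, against 1146 and 989 of all 20926 genes. DESeq2 also called 0 in each.

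Within each light condition, *PIF4* had 87.8, 87.8 and 86.8 CPM in *hfr1* under WL, against 76.1, 77.9 and 61.0 CPM in Col, groups that did not overlap but whose difference was not called (0.29, −0.10 to 0.68, adjusted p = 0.788). *PIF5* also had higher values in *hfr1* under WL, at 97.5, 95.1 and 86.3 CPM, against 83.6, 80.0 and 70.8 CPM in Col (0.25, 0.06 to 0.44, adjusted p = 0.618). Under +FR+UVB *PIF4* lay below Col without overlap, at 16.5, 15.9 and 16.7 CPM in *hfr1*, against 22.1, 22.4 and 18.2 CPM in Col (−0.35, −0.77 to 0.06, adjusted p = 0.441). Also without overlap, and not called, *PIF8* was higher in *hfr1* under WL (0.23, −0.07 to 0.53) and +FR+UVB (0.12, −0.18 to 0.41). *PIF7* was lower without overlap under +FR+UVB (−0.19, −0.53 to 0.15) and was not called. edgeR's quasi-likelihood test called 0 of 6 genes between *hfr1* and Col under +FR+UVB (2.42% of all genes), 0 under +UVB (0.0908%), 0 under +FR (0.100%) and 0 under WL (0.100%). DESeq2 called 0 in each of these, and by edgeR's test 1 gene, *PIF5* under WL, had an unadjusted p under 0.05. Under WL 1450 of all 20926 genes did.

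Low R:FR alone changed *PIF7* in all genotypes and *PIF3* and *PIF1* in some, while the elongation pair *PIF4* and *PIF5* was not called. *PIF7* fell throughout. In *uvr8* it had 14.1, 13.9 and 12.9 CPM under +FR, against 28.5, 22.4 and 22.5 CPM under WL (−0.84, SE 0.17, adjusted p = 0.00121). In *hfr1* it had 10.7, 13.7 and 15.2 CPM under +FR, against 37.1, 34.2 and 28.5 CPM under WL (−1.33, SE 0.17, adjusted p = 2.16e-06), and in Col 15.2, 18.1 and 14.2 CPM under +FR, against 32.8, 28.1 and 21.7 CPM under WL (−0.80, SE 0.17, adjusted p = 0.00176). Every +FR library was below every WL library of its genotype. *PIF7* overlaps 318 bases of AT5G61260 on the opposite strand, a gene that had 1.24 to 3.72 CPM over all libraries (median 2.27 CPM). The kit keeps strand, and whether the counting used it is not given in the sources used here.

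*PIF3* rose with +FR in *hfr1*, at 30.1, 27.0 and 28.1 CPM under +FR, against 13.9, 17.4 and 17.2 CPM under WL (0.80, SE 0.22, adjusted p = 0.0167). In *uvr8* it was not called (0.35, −0.10 to 0.81, adjusted p = 0.399). In Col it had 31.4, 26.9 and 36.8 CPM under +FR, against 14.8, 18.3 and 26.6 CPM under WL, and this rise only just passed (0.67, SE 0.22, adjusted p = 0.0491). The call in Col was lost under several alternatives, with an adjusted p of up to 0.247 when 1 library was left out (without Col WL replicate 1), and that in *hfr1* was lost without WL replicate 1 (adjusted p = 0.0884) or without +FR replicate 1 (adjusted p = 0.0607). *PIF1* fell in *hfr1* (−0.61, adjusted p = 0.000267), with 26.7, 23.8 and 23.2 CPM under +FR, against 34.5, 40.5 and 37.3 CPM under WL. It also fell in *uvr8* (−0.53, adjusted p = 0.00177), with 20.7, 21.8 and 24.7 CPM under +FR, against 33.3, 33.9 and 29.9 CPM under WL. In Col, where it had 28.3, 31.2 and 24.0 CPM under +FR, against 35.1, 36.7 and 32.5 CPM under WL, the difference stayed just short (−0.32, −0.54 to −0.09, adjusted p = 0.0608), and it was called by DESeq2 (adjusted p = 0.0471) and without Col +FR replicate 2 (adjusted p = 0.0306). *PIF1* overlaps 334 bases of AT2G20170 on the opposite strand, a gene at or below 0.0512 CPM in every library.

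*PIF4*, *PIF5* and *PIF8* were not called with +FR in any genotype. In *hfr1* the log2 fold changes were −0.52 for *PIF4* (−0.91 to −0.13, adjusted p = 0.0833), −0.22 for *PIF5* (−0.41 to −0.03, adjusted p = 0.128) and −0.24 for *PIF8* (−0.54 to 0.06), and in *uvr8* they were −0.03, 0.12 and 0.19. In Col they were −0.13 for *PIF4* (−0.52 to 0.26), 0.03 for *PIF5* (−0.16 to 0.21) and 0.08 for *PIF8* (−0.22 to 0.38). With +FR, 3 of 6 *PIF* genes were called in *hfr1* (11.1% of all genes), 2 in *uvr8* (7.84%) and 2 in Col (10.3%). No difference in the effect of +FR between genotypes was called: edgeR's quasi-likelihood test and DESeq2 each called 0 of 6 genes for *uvr8* minus Col (0% of all genes) and 0 of 6 for *hfr1* minus Col (0%). By edgeR's test the lowest unadjusted p, and the only one under 0.05, was 0.0335, for *PIF7* in *hfr1* minus Col (−0.53, −1.01 to −0.04, adjusted p = 1). Of all 20926 genes, 598 had an unadjusted p under 0.05 for *hfr1* minus Col and 719 for *uvr8* minus Col.

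**Figure D4:**
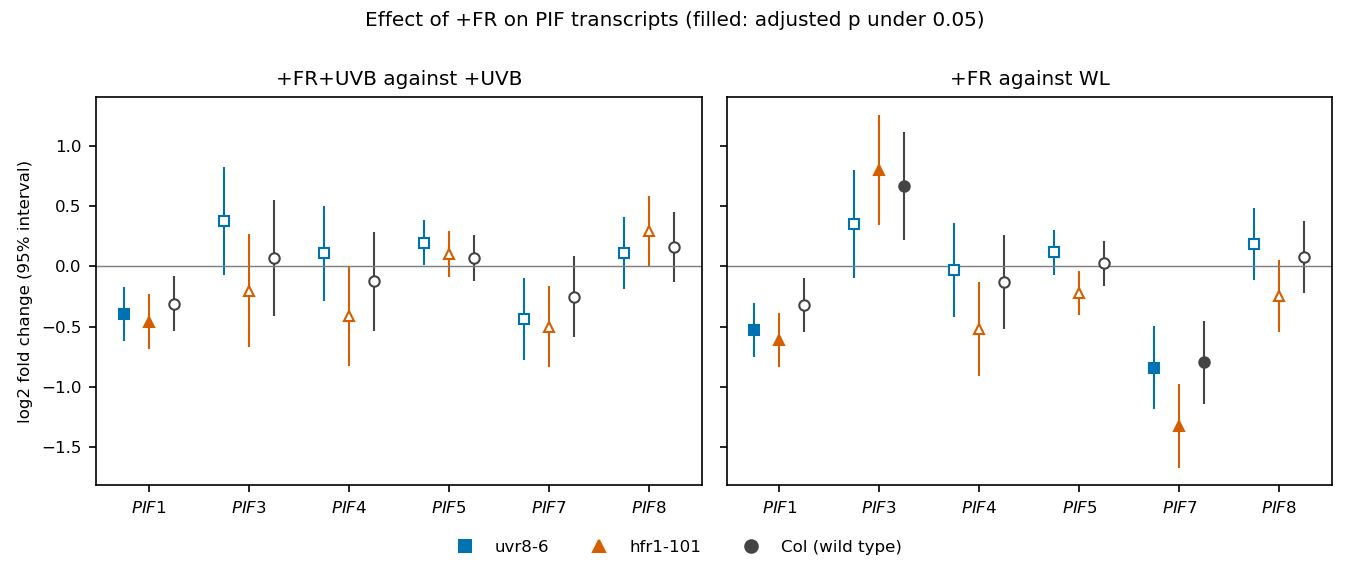
Log2 fold change of each *PIF* gene with low R:FR (vertical axis; bars, 95% interval) in the presence of UV-B (left) and in white light (right) in *uvr8*, *hfr1* and Col; filled symbols have an adjusted p under 0.05. In white light *PIF7* is lower with +FR in all genotypes (−0.84, −1.33 and −0.80), and with UV-B present the filled symbols are those of *PIF1* in *uvr8* (−0.40) and *hfr1* (−0.46).

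When UV-B was present, adding low R:FR gave calls for *PIF1* alone by edgeR's quasi-likelihood test, and DESeq2 also called *PIF7* in *hfr1*. *PIF1* fell in *hfr1*, with 15.5, 19.3 and 14.8 CPM under +FR+UVB, against 21.0, 22.2 and 25.1 CPM under +UVB (−0.46, adjusted p = 0.0108), and in *uvr8*, with 20.6, 18.7 and 19.5 CPM, against 24.9, 23.8 and 28.9 CPM (−0.40, adjusted p = 0.0294). In Col it had 22.1, 17.3 and 19.0 CPM under +FR+UVB, against 25.9, 22.8 and 23.5 CPM under +UVB (−0.31, −0.54 to −0.08, adjusted p = 0.124). These calls were weak: *PIF1* in *hfr1* was lost without +FR+UVB replicate 3 (adjusted p = 0.0813) or replicate 1 (adjusted p = 0.0691). In *uvr8* it was lost in a fit of that genotype alone (adjusted p = 0.0699), without +FR+UVB replicate 2 (adjusted p = 0.095) or 3 (adjusted p = 0.0662) and without +UVB replicate 1 (adjusted p = 0.051) or 3 (adjusted p = 0.117). *PIF7* had values of −0.50 in *hfr1* (−0.84 to −0.16, adjusted p = 0.0706, called by DESeq2 at −0.51, adjusted p = 0.048, and with library-size scaling at −0.60, adjusted p = 0.0101), −0.44 in *uvr8* (−0.78 to −0.10, adjusted p = 0.137) and −0.25 in Col (−0.59 to 0.09). Without the *hfr1* +UVB replicate 1, *PIF7* (−0.65, adjusted p = 0.0308) and *PIF4* (−0.76, adjusted p = 0.00197) were called in *hfr1* as well.

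Adding low R:FR to UV-B thus gave 1 call of 6 in *hfr1* (6.00% of all genes), 1 in *uvr8* (5.29%) and, by edgeR's quasi-likelihood test and by DESeq2, 0 in Col (3.37%). In Col edgeR's test gave 1 gene an unadjusted p under 0.05, as it did 3715 of all 20926 genes. Whether UV-B acted differently under low R:FR than in white light was tested directly, as the UV-B effect under +FR minus that in WL. edgeR's quasi-likelihood test called 0 of 6 genes in *hfr1* (0.927% of all genes), 0 in *uvr8* (0%) and 0 in Col (1.17%). It put 4, 0 and 1 genes at an unadjusted p under 0.05, against 2959, 817 and 2385 of all 20926 genes. DESeq2 called 1, 0 and 0. The gene that DESeq2 called was *PIF7* in *hfr1* (0.82, adjusted p = 0.0482), for which edgeR gave 0.83 (0.35 to 1.31, adjusted p = 0.0861). *PIF7* had a positive value in Col too (0.55, 0.07 to 1.03, adjusted p = 0.34), and *PIF3* a negative one in *hfr1* (−1.0, −1.66 to −0.35, adjusted p = 0.136) and in Col (−0.60, −1.25 to 0.06, adjusted p = 0.504). Without the *hfr1* +UVB replicate 3 both were called in *hfr1*, *PIF3* at −1.23 (adjusted p = 0.0284) and *PIF7* at 1.05 (adjusted p = 0.0116), and without replicate 1 *PIF3* was at −0.64 (adjusted p = 0.45). For *PIF4*, *PIF5* and *PIF8* in Col the values were 0.01, 0.05 and 0.08, with intervals of −0.57 to 0.58, −0.22 to 0.31 and −0.34 to 0.50.

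Across the 12 group means of log2 CPM, *PIF4* and *PIF5* ran together (Pearson r = 0.96), and *PIF8* ran opposite to both (r = −0.94 with *PIF4*, −0.92 with *PIF5*) and to *PIF3* (r = −0.85). *PIF7* ran opposite to *PIF3* (r = −0.77) and less closely with *PIF8* (r = 0.45). These are descriptions over groups that share light treatments and scaling. Among 18959 genes with a mean of at least 1 CPM, the patterns most like *PIF8* were those of AT1G76570 (r = 0.998), AT3G24190 (r = 0.997) and *KEA3* (r = 0.997), a potassium exchanger of the thylakoid membrane. Those most like *PIF4* were AT1G48540 (r = 0.991), AT1G55675 (r = 0.990) and AT2G15960 (r = 0.988), and those most like *PIF5* were AT3G12150 (r = 0.988), *VPS35B* (r = 0.987) and AT2G21830 (r = 0.985). *PIF1* was matched most closely by *ERDL6* (r = 0.981), *HS1* (r = 0.977) and AT3G26890 (r = 0.967), *PIF3* by AT4G16150 (r = 0.988), *NUDX1* (r = 0.979) and *STL2P* (r = 0.978), and *PIF7*, with the lowest likeness of all 6, by *BGLU47* (r = 0.959), *CIPK17* (r = 0.956) and *CSA1* (r = 0.949).

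The genes around the PIFs were described from lists of known function, by counts and medians in the same fits. The lists were chosen with earlier results of these data known. The shade targets include marker genes whose shade induction and UV-B repression the study itself reported. Their counts below describe that response and do not test it. The changes with UV-B under low R:FR in Col are given first. In that comparison 54.4% of all genes were called, 5626 of them higher and 5765 lower, so that list counts near this share are near the background. Among 12 genes that PIFs activate in shade, 12 fell (median −2.69, against −0.04 for all genes), including *ATHB4*, a homeodomain leucine zipper gene (−3.11). Of 7 greening genes that PIFs repress, 5 rose (median 1.14), among them *HEMA1* (1.48) and *CHLH* (1.44) of chlorophyll synthesis and *PSY* (1.22) of carotenoid synthesis, while the antenna gene *LHCA1* fell (−0.68). Both bZIP regulators, *HY5* (2.73) and *HYH* (2.69), rose. Of the 7 related bHLH genes, which share *PIL1* and *HFR1* with the shade targets, 6 fell, among them the atypical inhibitors *PAR1* (−4.29) and *PAR2* (−1.64), and *ALC* rose (1.35).

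Of 17 genes for PIF protein turnover, 10 rose and 4 fell (median 0.35). The COP1 complex was among those that rose, with *COP1* at 1.04 and its partner *SPA4* at 1.12, as was *DET1* (1.12), while the F-box genes *EBF2* (−0.75) and *EBF1* (−0.59) and the kinase genes *PPK4* (−0.32) and *BIN2* (−0.31) fell. Of the 5 DELLA genes, growth repressors that bind and inhibit PIFs, 4 fell, including *RGL1* (−2.36), *GAI* (−2.29) and *RGL3* (−1.72), and 0 rose. Of 9 clock genes that set the daily rhythm of *PIF4* and *PIF5*, 6 rose and 0 fell, led by *ELF4* of the evening complex (1.56), *PRR9* (1.33) and *LHY* (0.67). Of 8 photoreceptor genes, *PHYA* (−2.67), *CRY1* (−0.85), *CRY2* (−0.81) and *UVR8* (−0.51) fell and *PHYC*, *PHYD* and *PHYE* rose by 0.38 to 0.65.

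In *uvr8* the same comparison called 2 shade targets (*XTR7* −1.02, *ATHB2* −0.42), *PHYA* (−0.54) and *HYH* (0.55), and 0 of the greening, turnover, DELLA, clock and related bHLH genes, where 2.07% of all genes were called. In *hfr1* the counts were 10 lower of 12 shade targets, 4 higher and 1 lower of 7 greening genes, 10 higher and 3 lower of 17 turnover genes, 3 lower of 5 DELLA genes and 6 higher of 9 clock genes, where 49.9% of all genes were called. By the test of the difference in the UV-B effect, 12 of 12 shade targets had a higher value in *uvr8* than in Col, where 33.4% of all genes were called. Between *hfr1* and Col, 4 of 12 shade targets, *ATHB4* among them (2.22), and 2 of 7 related bHLH genes, *PIL1* and *HFR1* of both lists, had a higher value in *hfr1*. In that contrast 0.0669% of all genes were called, and the 0 calls in the other lists and among the 6 *PIF* genes are what this background gives. With +FR alone in Col, 11 of 12 shade targets rose (median 3.13, against 0.01 for all genes), 4 of 7 greening genes fell, and *PHYA* (1.99) and *PHYB* (1.27) rose, where 10.3% of all genes were called.

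**Figure D5:**
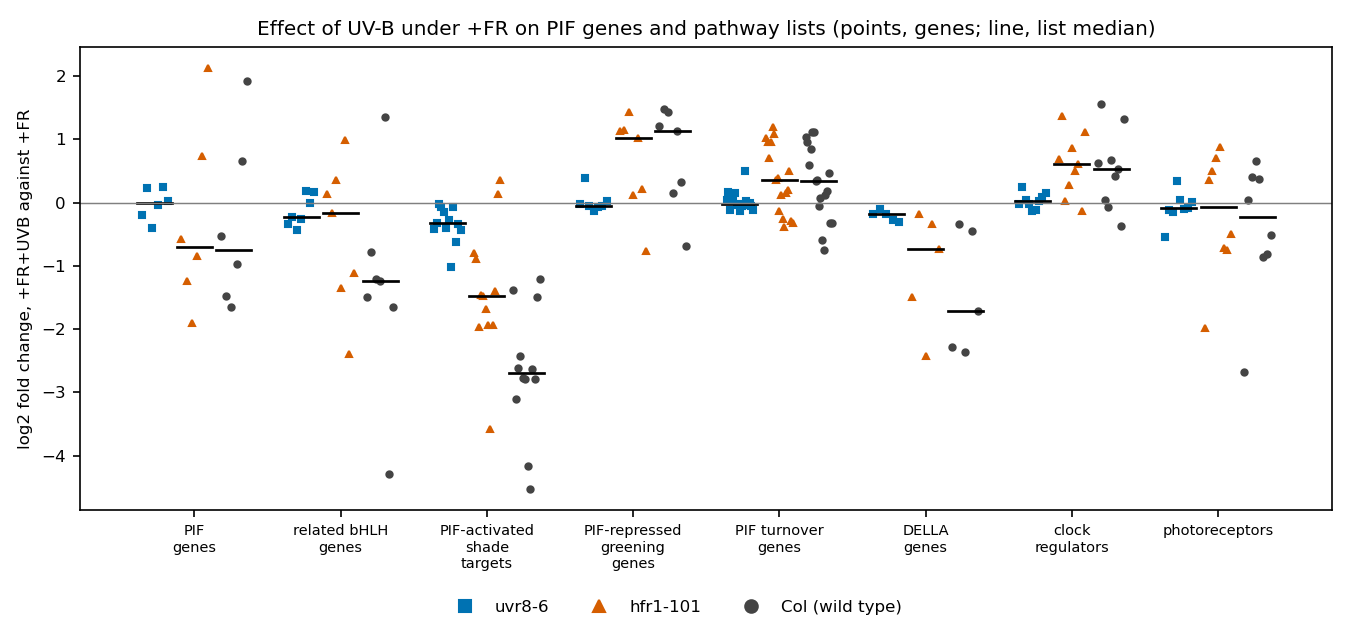
Log2 fold change of each gene (points) with UV-B under low R:FR, +FR+UVB against +FR, for the *PIF* genes and 7 lists (the bZIP regulators are not plotted) in *uvr8*, *hfr1* and Col; lines are list medians. In Col the shade targets have a median of −2.69 and the greening genes of 1.14, the *PIF* genes spread between −1.65 and 1.92, and the plotted *uvr8* points lie between −1.02 (*XTR7*) and 0.50 (*EBF2*).

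The 6 genes lie on all 5 chromosomes (TAIR10.1, 1-based): *PIF3* on chromosome 1, 3075768 to 3079654 (plus strand); *PIF1* on chromosome 2, 8704024 to 8707009 (minus strand); *PIF4* on chromosome 2, 17886101 to 17889087 (plus strand); *PIF5* on chromosome 3, 21827905 to 21830837 (minus strand); *PIF8* on chromosome 4, 17639 to 20183 (plus strand); and *PIF7* on chromosome 5, 24638491 to 24640765 (minus strand). Their merged exon lengths, used for the levels per kb, were 2762, 2344, 2597, 2561, 1886 and 1953 bases in that order.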

How the data were processed

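RNA was measured in whole seedlings of 12 genotype-by-light groups with 3 libraries each, grouped by the sample titles. Per the labels, poly(A) RNA was made into stranded libraries and sequenced as single-end reads. The submitters' processing notes name FastQC 0.10.2, TopHat2 2.0.13, HTSeq 0.6.1, edgeR 3.4.2 and the TAIR10 genome. The raw table deposited by the authors holds whole-number counts per gene for 33602 genes, and the strand setting of the counting is not given in the sources used here. The second table deposited by the authors holds a normalized signal per gene for 20926 genes that passed their filter on low values. For the *PIF* genes this signal differed from TMM-scaled CPM by at most 0.0283%. All columns of both tables were matched to samples, and 0 were left over.

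Counts of the 20926 genes were fitted in edgeR 4.0.16 (R 4.3.3, limma 3.58.1) with 1 coefficient per group, TMM factors (0.860 to 1.13) and the quasi-likelihood F-test in its legacy form, for 29 comparisons. P-values were adjusted over all genes by the method of Benjamini and Hochberg, and a gene was called at an adjusted p under 0.05. TMM assumes that most genes do not change, which UV-B strains, so scaling by library size was among the alternatives. The others were DESeq2 1.42.0, the current quasi-likelihood form, no filter (26408 genes), filterByExpr (20867 genes), a fit restricted to the genotypes of a comparison, a block for the replicate number, a minimum fold change of 2, each library left out, and the authors' normalized signal in place of CPM for levels. Scripts were tested on simulated data.

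Same-numbered libraries deviated together (every correlation over 0.1) in 2 of 20 comparisons, +UVB against WL in Col (0.182, 0.185 and 0.357) and *hfr1* against Col under +FR (0.177, 0.24 and 0.346). In the others not all 3 correlations exceeded 0.1, and single values ranged from −0.364 to 0.493. Whether those libraries shared an experiment cannot be told from this check. The members and lists were chosen with earlier results of these data known. All 6 *PIF* genes were named in every comparison. In each list at most the 3 called genes with the largest change and those of opposite sign were named, and for each *PIF* gene the 3 genes of most similar pattern. *UVR8* and *HFR1* were named as the mutated genes. Gene models and upstream sequences came from RefSeq's TAIR10.1 annotation. Tables and figures were made with Python 3.11.15, pandas 2.3.3, numpy 2.4.6 and matplotlib 3.10.9.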

Additional observations from a re-analysis of the deposited data

Results flagged for a closer look

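The effect of UV-B differed between *uvr8* and Col, by the test of the difference itself, for 4 *PIF* genes in each light background. In white light (+UVB against WL) the log2 difference, *uvr8* minus Col, was −1.73 for *PIF8*, 0.90 for *PIF5*, 1.11 for *PIF4* and 1.09 for *PIF3*. Under low R:FR (+FR+UVB against +FR) it was −1.89 for *PIF8*, 0.94 for *PIF5*, 1.24 for *PIF4* and 1.72 for *PIF3*. Of these 8 differences, that of *PIF3* in white light lost its call without Col WL replicate 3, at 0.83 (adjusted p = 0.0537, edgeR's quasi-likelihood test), and those of *PIF5*, at 1.87-fold and 1.91-fold, did not reach the minimum fold change of 2.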

How the results depend on the processing

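Of 48 *PIF* values called, 23 also had a fold change over 2 and 25 did not. In the alternatives other than this minimum, 41 of the 48 kept their call throughout and 7 lost it in at least 1, and of 126 values not called, 17 of 1914 alternative values passed. No called value changed direction. Sign changes occurred in 95 alternative values of 40 results called in neither fit, none of them above 0.36 in size in the main result. For +FR against WL in Col, the 2 calls became 1 with library-size scaling, with no filter and with filterByExpr, through *PIF3* (adjusted p = 0.0502, 0.0603 and 0.0535). With the replicate block the count was also 1, *PIF3* at 0.67 (adjusted p = 0.0605), and the block changed no other call. A minimum fold change of 2 left 0 *PIF* genes for +FR in *uvr8* and Col and 1 in *hfr1*, against 427, 407 and 586 of all 20926 genes. It left 3 for UV-B in Col in white light (2819 of all genes) and under low R:FR (3516), and 3 for UV-B under low R:FR in *hfr1* (2777). For *uvr8* against Col it left 3 under +FR+UVB (2604) and 1 under +UVB (2718). For +FR+UVB against +UVB it left 0 in *uvr8* (326) and *hfr1* (308). That last comparison gave 2 calls in *hfr1* with library-size scaling and with DESeq2, and 0 in *uvr8* when that genotype was fitted alone. The test for a UV-B effect that differed with low R:FR in *hfr1* gave 1 call with DESeq2. Without 1 library at a time, the counts ran from 1 to 2 for +FR in Col, 0 to 1 for +UVB against WL in *uvr8*, 0 to 1 and 0 to 3 for +FR+UVB against +UVB in *uvr8* and *hfr1*, and 0 to 2 for that last test. Library-size scaling moved all-gene medians by up to 0.29. With 3 libraries a group, the size of change that was called varied with the gene. By edgeR's quasi-likelihood test with +FR in Col, *PIF1* at −0.32 stayed just short (adjusted p = 0.0608), and *PIF3* at 0.67 only just passed (adjusted p = 0.0491). The decreases of *PIF1* with UV-B in Col, at −0.53 and −0.52, kept their call throughout.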
